A study of Mus musculus with 4 samples.

Results

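The genes described here are the 10 core genes of the circadian clock, *Arntl*, *Clock*, *Per1*, *Per2*, *Per3*, *Cry1*, *Cry2*, *Nr1d1*, *Nr1d2* and *Dbp*, of 22368 genes named on the array. They were taken by gene symbol from the spots that are not controls, with every probe kept, which gave 14 probes of 31367 with a gene name. The 4 one-color arrays each held colon RNA pooled within 1 group of male B6.129 (n3) mice, 42 weeks old, kept on a 12-h light-dark cycle. The groups were *Pla2g3*+/+ and *Pla2g3*-/- mice (with and without group III secreted phospholipase A2) given saline as vehicle, and the same genotypes given azoxymethane (AOM), a procarcinogen that induces colon tumors, at 10 mg/kg weekly for 6 weeks, with colons removed 28 weeks later. A figure legend of the study gives 4 mice per pool and whole descending colon. The deposited design instead gives 3 to 5 mice and calls the AOM tissue cancerous. The hour of day at which the colons were taken is not given in the sources used here. Since each group was a single pooled array, no difference between a pair of arrays has an error between animals or a p-value.

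The clock is a feedback loop of transcription that runs in nearly every cell, including the epithelium and the smooth muscle of the colon. CLOCK and BMAL1, the product of *Arntl*, pair to activate genes that carry an E-box, among them the *Per* and *Cry* genes, whose proteins later block that activation. The same pair activates *Nr1d1* and *Nr1d2*, which encode the nuclear receptors REV-ERBα and REV-ERBβ that repress *Arntl*, and *Dbp*, which encodes an activator that binds D-boxes. In mouse peripheral tissues the mRNAs therefore swing over the day, *Arntl* being high when *Nr1d1* and *Dbp* are low, whereas *Clock* swings little. A pool taken at another hour, or from mice with another phase, can thus differ in these mRNAs. Hour, genotype and treatment cannot be told apart on these arrays.

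The E-box and the D-box named above can be read in the sequences before the transcription start sites. Some members are known to drive others through them, and the sequences are shown for that reason. The sites through which REV-ERBα and REV-ERBβ repress *Arntl* were not searched. Windows of 250 bases upstream of the start, from RefSeq on GRCm38.p6, were found for 9 of the 10 genes, with 13 windows in all, and not for *Per2*. They were searched on both strands for the E-box CACGTG, its variant CACGTT, the D-box as TTATGTAA or TTACGTAA, and the cAMP response element TGACGTCA, each an exact match. Matches are in capitals, on the strand of the gene, and the windows with a match were those of *Per1* (chr11:69098699-69098948, plus strand), *Per3* (chr4:151044666-151044915, minus strand), *Cry1* (chr10:85185055-85185304, minus strand), *Cry2* (chr2:92434070-92434319, minus strand) and *Nr1d1* (chr11:98775378-98775627, minus strand).
Per1: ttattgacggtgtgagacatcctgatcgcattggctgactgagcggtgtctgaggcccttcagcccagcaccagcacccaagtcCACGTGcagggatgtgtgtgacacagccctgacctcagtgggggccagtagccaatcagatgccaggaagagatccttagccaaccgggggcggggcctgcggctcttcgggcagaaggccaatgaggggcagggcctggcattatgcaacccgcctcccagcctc
Per3: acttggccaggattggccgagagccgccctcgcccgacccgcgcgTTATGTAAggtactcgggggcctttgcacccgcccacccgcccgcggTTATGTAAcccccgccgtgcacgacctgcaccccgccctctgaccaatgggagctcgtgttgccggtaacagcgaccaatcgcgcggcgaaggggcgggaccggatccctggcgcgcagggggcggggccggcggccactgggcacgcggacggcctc
Cry1: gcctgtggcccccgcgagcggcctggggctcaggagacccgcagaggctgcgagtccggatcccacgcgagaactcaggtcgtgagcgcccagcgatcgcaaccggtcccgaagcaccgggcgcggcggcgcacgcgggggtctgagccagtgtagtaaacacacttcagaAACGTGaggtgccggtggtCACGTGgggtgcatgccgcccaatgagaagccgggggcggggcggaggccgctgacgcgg
Cry2: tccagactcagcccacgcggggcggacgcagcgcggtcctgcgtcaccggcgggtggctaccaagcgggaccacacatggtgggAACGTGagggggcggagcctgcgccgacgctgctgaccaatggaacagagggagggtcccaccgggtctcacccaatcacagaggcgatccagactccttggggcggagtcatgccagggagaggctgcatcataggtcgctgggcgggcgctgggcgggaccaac
Nr1d1: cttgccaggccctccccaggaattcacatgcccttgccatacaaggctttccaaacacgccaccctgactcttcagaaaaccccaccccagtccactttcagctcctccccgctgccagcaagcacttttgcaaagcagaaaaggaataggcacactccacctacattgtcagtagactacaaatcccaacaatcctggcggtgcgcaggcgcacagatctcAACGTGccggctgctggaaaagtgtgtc

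*Per1* had an E-box that began 166 bases before the start. *Cry1* had an E-box at 60 and the variant at 79 bases before the start, and *Cry2* and *Nr1d1* had the variant at 166 and 28 bases. The D-box was found in *Per3*, at 205 and 158 bases, and the cAMP response element was in none of the members' windows. Over all 32851 windows of the same length, 6.02% held the E-box, 3.85% its variant, 0.931% the D-box and 1.55% the cAMP response element. A match is a string of letters and not a measured site, and a window without one says nothing of elements elsewhere in the gene.

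Levels are given below as the signal of a probe over its array's 75th percentile, without a unit, and they compare arrays at 1 probe and never one probe with another. Of the 14 probes, 13 were well above background on all 4 arrays, and the remaining one, a second *Per1* probe (chromosome 11 of mm9, 68919895 to 68919954), was not well above background on any. KO/WT stands for the array labelled *Pla2g3*-/- over the array labelled *Pla2g3*+/+. The brightest *Pla2g3* probe itself had relative levels of 0.531 and 0.656 with vehicle and 0.232 and 1.4 after AOM on the arrays labelled *Pla2g3*+/+ and *Pla2g3*-/-, so KO/WT was 1.23 and 6.01. Where the probes lie relative to the deleted part of the gene is not given in the sources used here. The targeted gene thus went against the genotype labels, and every genotype direction here follows those labels. A difference over 2-fold (over 1 on the log2 scale) was counted, the threshold used in the study.

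**Figure D1:**
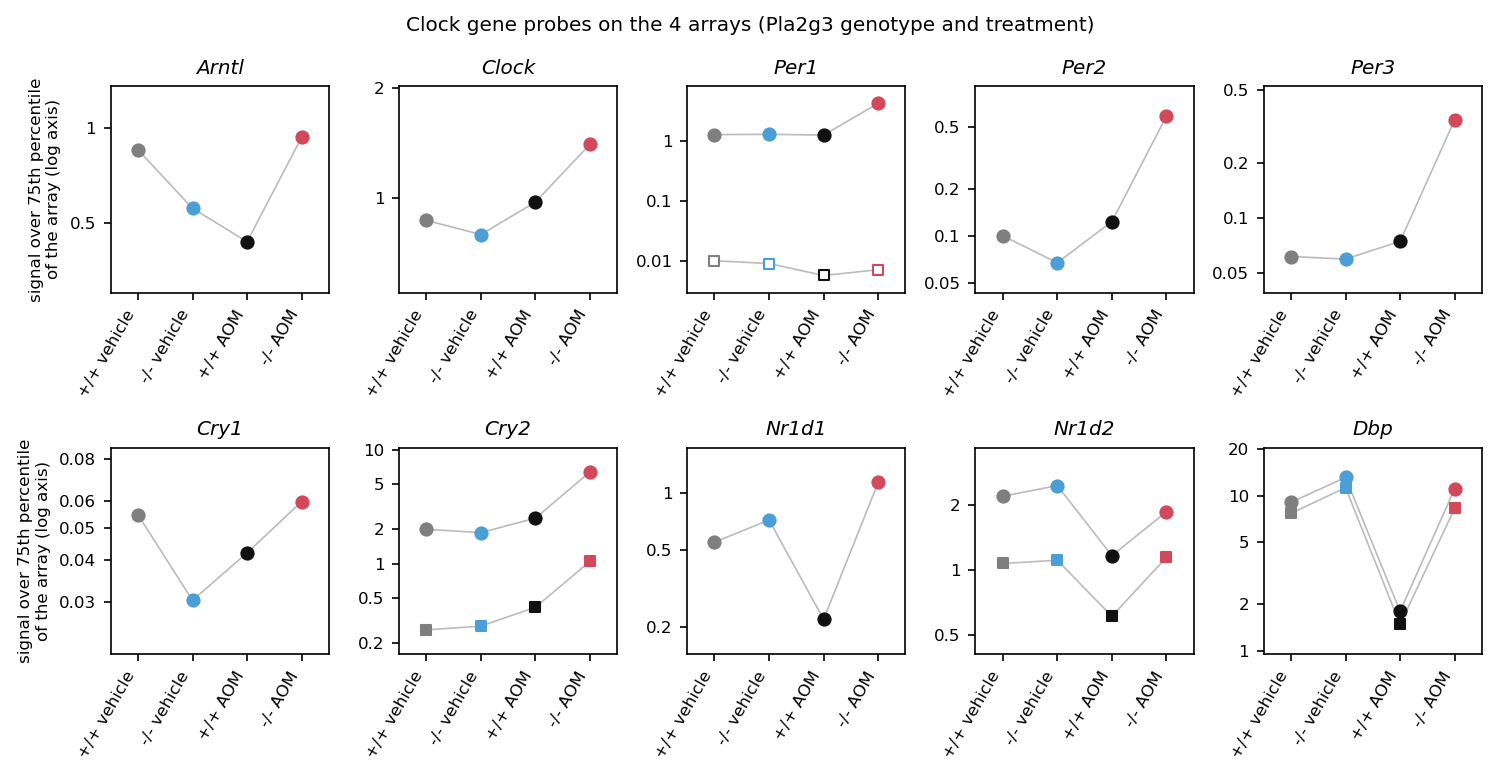
Signal of each clock gene probe over the 75th percentile of its array (log axis, no unit), on the 4 arrays labelled by *Pla2g3* genotype and treatment, 1 pooled array per group. Circles are the probe that stands for the gene, squares a second probe, open symbols signals not well above background, and lines only join the values of 1 probe; 8 of the 10 genes were highest on the array of *Pla2g3*-/- mice given AOM.

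*Arntl* and *Clock*, the activating pair, differed in pattern, *Arntl* differing by genotype in opposite directions under the treatments and *Clock* staying within 2-fold throughout. *Arntl* (chromosome 7 of mm9, 120457261 to 120457320) had relative levels of 0.853 in *Pla2g3*+/+ and 0.555 in *Pla2g3*-/- with vehicle, and 0.434 and 0.936 after AOM. *Arntl* was 1.54-fold lower on the *Pla2g3*-/- array with vehicle and 2.15-fold higher after AOM. AOM over vehicle was 1.96-fold lower in *Pla2g3*+/+ and 1.69-fold higher in *Pla2g3*-/-. *Clock* (chromosome 5, 76641377 to 76641436) had 0.872 and 0.798 with vehicle and 0.977 and 1.4 after AOM, and its highest array was 1.76-fold above its lowest, the smallest spread of the 10 genes.

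The 3 *Per* genes, which encode the repressors PER1, PER2 and PER3, shared 1 high array. *Per1* (chromosome 11, 68923364 to 68923423) had relative levels of 1.30 and 1.32 with vehicle and 1.28 in *Pla2g3*+/+ after AOM, but 4.33 in *Pla2g3*-/- after AOM. *Per2* (chromosome 1, 93313046 to 93313105) had 0.10 and 0.0671 with vehicle, and 0.123 and 0.585 after AOM. *Per3* (chromosome 4, 150379256 to 150379315) had 0.0615 and 0.0596 with vehicle, and 0.0744 and 0.343 after AOM. In each of the 3, the array of *Pla2g3*-/- mice given AOM stood above the other 3 arrays, which lay close together for *Per1* and *Per3*. KO/WT after AOM was 3.38-fold for *Per1*, 4.75-fold for *Per2* and 4.6-fold for *Per3*, against 1.01, 0.671 and 0.968 with vehicle. AOM over vehicle in *Pla2g3*-/- was 3.28-fold, 8.72-fold and 5.75-fold, and 0.260% of the 16514 genes with a value there lay above *Per2*. *Per2* and *Per3* were dim, and their folds fell with normexp, a model-based background correction, and quantile normalization. With these the log2 values in *Pla2g3*-/- were 1.92 and 1.33 in place of 3.12 and 2.52, and those of KO/WT after AOM 1.54 and 1.18 in place of 2.25 and 2.20.

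*Cry1* and *Cry2*, the partners of the PER proteins in repression, differed from each other. *Cry1* (chromosome 10, 84594731 to 84594790) had relative levels of 0.0547 and 0.0304 with vehicle and 0.0421 and 0.0599 after AOM. *Cry1* was 1.80-fold lower on the *Pla2g3*-/- array with vehicle and 1.42-fold higher after AOM, and passed 2-fold in no comparison. With normexp and quantile normalization its log2 KO/WT was -0.29 with vehicle and 0.22 after AOM. The brighter *Cry2* probe (chromosome 2, 92243807 to 92243866) had 2.01 and 1.87 with vehicle, and 2.51 and 6.43 after AOM, a KO/WT of 0.933 and 2.56. The dimmer *Cry2* probe (92251417 to 92251476) had 0.260, 0.280, 0.411 and 1.04 in the same order, which gave a KO/WT of 1.08 and 2.54. Both *Cry2* probes were highest on the array of *Pla2g3*-/- mice given AOM and close to even with vehicle.

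*Nr1d1*, *Nr1d2* and *Dbp*, direct targets of the activating pair, shared 1 low array instead. The *Nr1d1* probe, which covers 503 bases of chromosome 11 (98630526 to 98631028), had relative levels of 0.552 and 0.720 with vehicle and 0.219 and 1.13 after AOM. The brighter *Dbp* probe (chromosome 7, 52965322 to 52965381) had 9.05 and 13.1 with vehicle and 1.79 and 11.1 after AOM. *Dbp* was thus low on the *Pla2g3*+/+ array after AOM alone, and its second probe (52965461 to 52965520), at 7.67, 11.3, 1.48 and 8.29, showed the same order. KO/WT after AOM was 5.15-fold for *Nr1d1* and 6.18-fold for *Dbp*, and AOM over vehicle in *Pla2g3*+/+ was 2.52-fold lower for *Nr1d1* and 5.05-fold lower for *Dbp*. In *Pla2g3*-/-, AOM over vehicle was 1.57 for *Nr1d1* and 0.847 for *Dbp*, neither past 2-fold. The brighter *Nr1d2* probe (chromosome 14, 19036568 to 19036627) had 2.20, 2.46, 1.17 and 1.86, and the other (19037253 to 19037312) 1.07, 1.11, 0.612 and 1.15. *Nr1d2* was also lowest on the *Pla2g3*+/+ array after AOM, but with a KO/WT there of 1.60 and 1.87 at its probes it did not pass 2-fold.

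Where a member had a pair of probes above background (*Cry2*, *Nr1d2* and *Dbp*), the probes differed by at most 0.45 on the log2 scale in the 4 comparisons, with a median of 0.13. The largest of these gaps, for *Nr1d2* between AOM and vehicle in *Pla2g3*-/-, straddled 0, at -0.40 for the brighter probe and 0.04 for the other. Spots of one probe repeated on an array had a median SD between 0.0574 and 0.0657 (log2). This covers spotting and scanning and neither the labelling nor the animals.

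In mice given vehicle, the clock genes of the arrays labelled *Pla2g3*-/- and *Pla2g3*+/+ lay within 2-fold of each other. None of the 10 members passed 2-fold, with 0 higher and 0 lower, beside 1.92% and 1.32% of the 16391 genes with a value. The log2 KO/WT ran from -0.85 for *Cry1* to 0.53 for *Dbp*, with a median of -0.07 over the members and -0.02 over all genes. *Arntl*, *Per2* and *Cry1* lay below 0 by more than 0.5, at -0.62, -0.58 and -0.85, whereas *Nr1d1* and *Dbp* lay above, at 0.38 and 0.53. *Per2* and *Cry1* were dim, and with normexp and quantile normalization *Arntl*, *Per2* and *Cry1* were at -0.46, -0.23 and -0.29. The SD of the log2 KO/WT over the 15471 genes above background on both arrays was 0.363. Of all genes with a value, 3.09% lay below *Arntl* and 1.75% below *Cry1*, and 4.75% lay above *Dbp* and 7.74% above *Nr1d1*. Relative to *Arntl*, *Nr1d1* was higher by 1.0, *Nr1d2* by 0.78 and *Dbp* by 1.15 on the log2 scale. *Per1*, *Per3* and *Cry2* were at 0.02, -0.05 and -0.10, inside a margin of 0.186 set from repeated spots (their largest median SD, doubled and multiplied by the square root of 2), and the second *Cry2* probe was at 0.11.

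**Figure D2:**
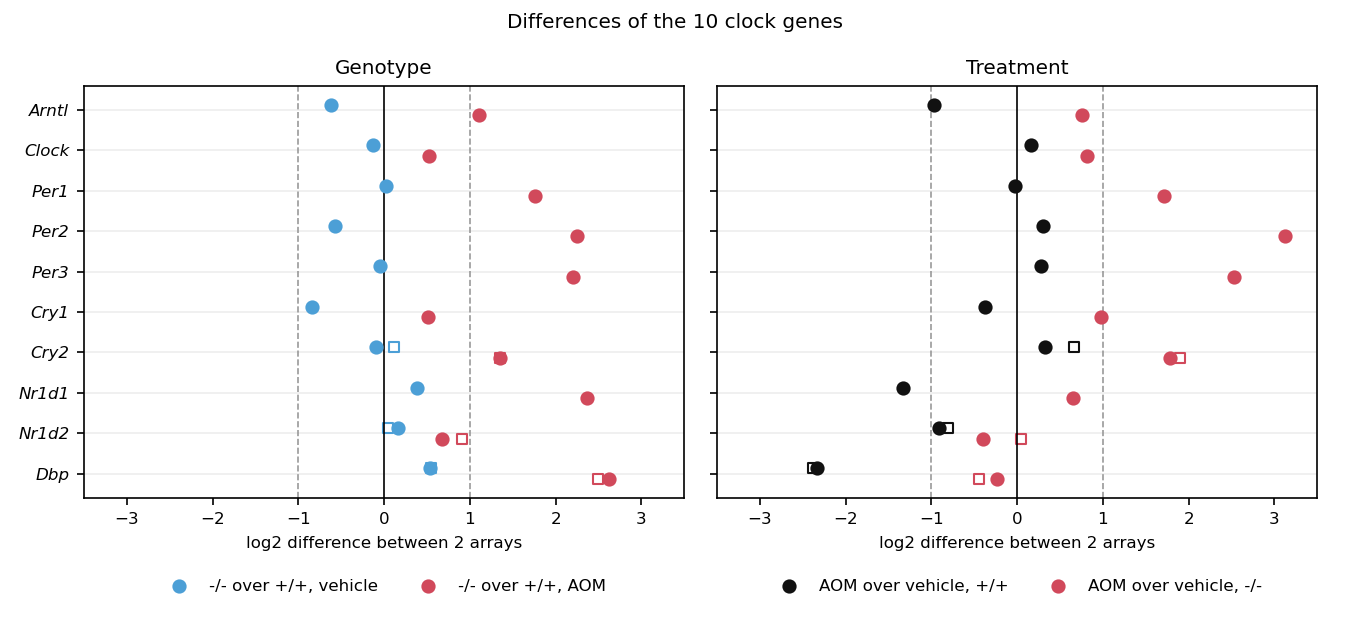
Log2 difference between 2 arrays for each clock gene, by genotype (left, blue for vehicle and red for AOM) and by treatment (right, black for *Pla2g3*+/+ and red for *Pla2g3*-/-); filled circles are the probe that stands for the gene, open squares a second probe, and dashed lines 2-fold. After AOM all 10 genes lie to the right of 0 by genotype, from 0.51 to 2.63, whereas with vehicle they lie on both sides.

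After AOM, every member was higher on the array labelled *Pla2g3*-/-. Over 2-fold, 7 of 10 members were higher and 0 lower, beside 15.1% and 12.9% of 17194 genes. The 7 were *Arntl*, *Per1*, *Per2*, *Per3*, *Cry2*, *Nr1d1* and *Dbp*, and the others, *Clock*, *Cry1* and *Nr1d2*, had log2 values of 0.52, 0.51 and 0.68. The median of the members was 1.56, against 0.03 over all genes, of which 51.9% lay above 0. All 10 members were also above 0 under the 6 other settings of scaling, background correction and choice of probe that could move them, with a median between 1.23 and 1.63. The call of *Arntl* was lost without scaling (0.94) and with normexp (0.93). *Arntl* and the genes of its repressors REV-ERBα and REV-ERBβ thus lay on the same side in this comparison, whereas with vehicle they were at -0.62, 0.38 and 0.16, the last inside the margin of spot error. *Per2*, *Nr1d1* and *Dbp* exceeded *Arntl* by 1.14, 1.26 and 1.52 on the log2 scale. The spread over all genes was also wide here, with an SD of 1.20, so that 3.24% of genes lay above *Dbp* and 13.5% above *Arntl*.

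The genotype difference after AOM minus that with vehicle, which equals the treatment difference in *Pla2g3*-/- minus that in *Pla2g3*+/+, was above 0 for each of the 10 members. It was over 1 (log2) in 8 of them and below -1 in 0, beside 16.3% and 12.8% of 15838 genes. *Per2* was at 2.82, *Per3* at 2.25, *Dbp* at 2.09, *Nr1d1* at 1.98, *Clock* at 0.65 and *Nr1d2* at 0.51. With normexp and quantile normalization 7 members were over 1, since *Cry1* fell from 1.35 to 0.51, and the order turned, with *Dbp* at 2.12, *Per2* at 1.77, *Nr1d1* at 1.52 and *Per3* at 1.21. The array of *Pla2g3*-/- mice given AOM was the highest of the 4 for 8 members and that of *Pla2g3*-/- mice given vehicle for the other 2, *Nr1d2* and *Dbp*. Among 14788 genes above background on all 4 arrays, these 2 arrays were the highest for 25.6% and 20.8%. The lowest array was that of *Pla2g3*+/+ mice after AOM for *Arntl*, *Per1*, *Nr1d1*, *Nr1d2* and *Dbp*, and that of *Pla2g3*-/- mice with vehicle for the other 5, beside 38.1% and 17.1% of the 14788 genes. *Per1* lay within the spot margin on both *Pla2g3*+/+ arrays and the *Pla2g3*-/- array with vehicle, so its lowest array is not settled.

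**Figure D3:**
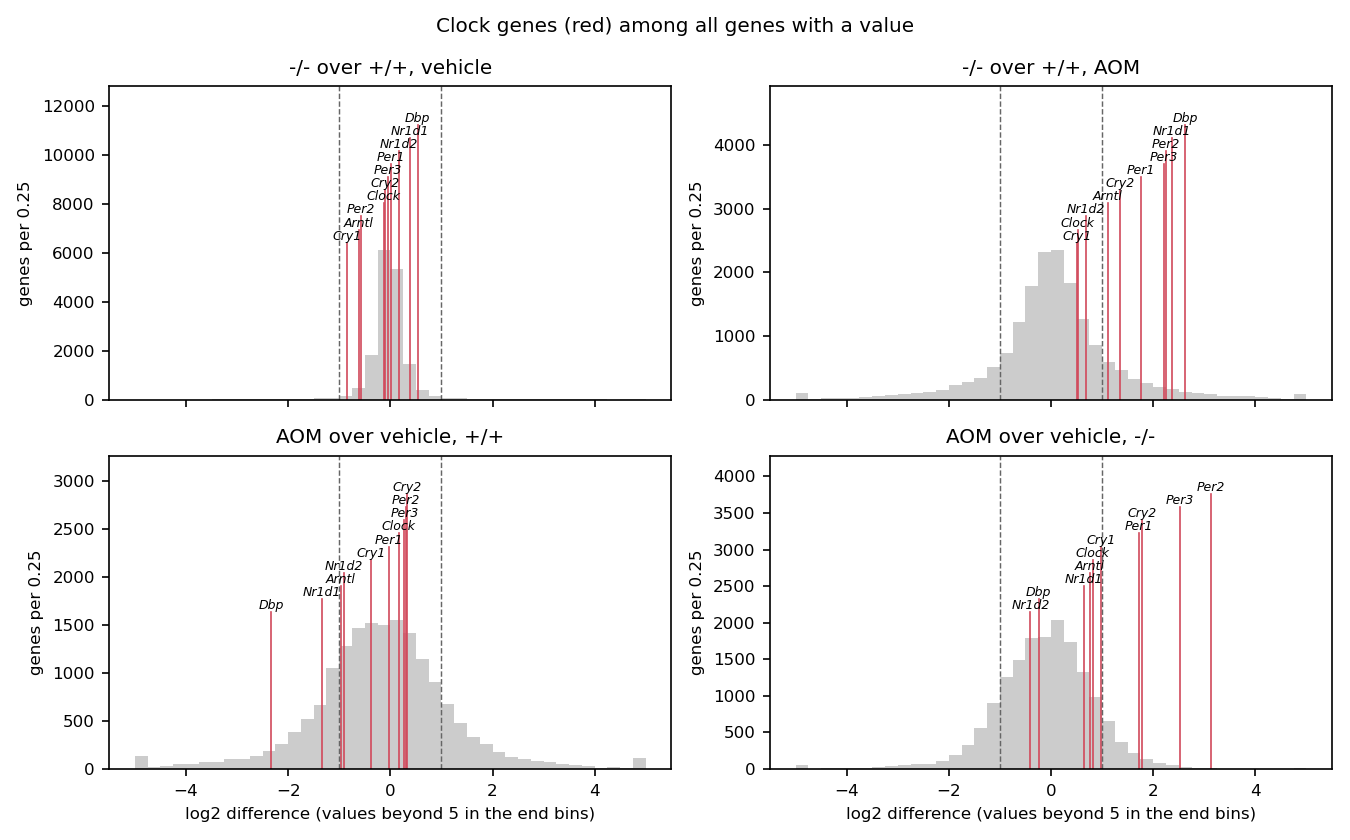
Number of genes per 0.25 of log2 difference (gray) in the 4 comparisons of 2 arrays, with the clock genes as labelled red lines whose height has no meaning; dashed lines mark 2-fold, and values beyond 5 are in the end bins. With vehicle the genotype comparison is narrow (SD 0.363) and holds the members between -0.85 and 0.53, whereas after AOM it is wide (SD 1.20) and the members lie between 0.51 and 2.63.

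AOM over vehicle divided the members by genotype. In *Pla2g3*+/+, 0 of 10 were over 2-fold higher and 2, *Nr1d1* and *Dbp*, over 2-fold lower, beside 15.1% and 22.4% of 17275 genes, so the share of members that were lower, 2 of 10, was near that of all genes. *Arntl* was just inside, at -0.97 on the log2 scale, and *Nr1d2* was at -0.91, whereas the *Per* genes and *Cry2* lay between -0.02 and 0.32. The second *Cry2* probe was at 0.66. The median of the members was -0.20 and that of all genes -0.17. Without scaling between the arrays the median of all genes moved to 0.87 and that of the members to 0.82, and *Arntl*, *Per1*, *Cry1* and *Nr1d2* turned from below to above 0. In *Pla2g3*-/-, 4 of 10 were over 2-fold higher, *Per1*, *Per2*, *Per3* and *Cry2*, and 0 over 2-fold lower, beside 9.65% and 15.1% of 16514 genes. *Cry1*, *Clock* and *Arntl* followed at 0.98, 0.81 and 0.75, and *Nr1d2* and *Dbp* were below 0, at -0.40 and -0.24. *Dbp* turned to 0.18 under quantile normalization, 0.14 with normexp before it and 0.61 without scaling, and *Nr1d2* to 0.44 without scaling and 0.04 at its dimmer probe. These comparisons share arrays with those by genotype and are not independent of them.

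Treatment and genotype were also fitted together with limma over the 4 arrays, with 1 residual degree of freedom, which asks for a shift alike in both levels of the other factor. The residuals of a gene are in size a fixed fraction of its difference of genotype differences given above. The intervals thus do not measure the spread between animals or pools. The fit called 0 of 16501 genes for either factor at an adjusted p of 0.05, the smallest adjusted p being 0.298 for treatment and 0.995 for genotype. At an unadjusted p under 0.05 it listed 2717 genes for treatment and 160 for genotype, and 0 members for both. For genotype *Dbp* had the widest log2 shift of the members, 1.58 with a 95% confidence interval from -0.56 to 3.72 (limma, adjusted p = 0.995), followed by *Nr1d1* at 1.37 from -0.67 to 3.42. For treatment *Per2* had 1.71 from -1.05 to 4.48 (limma, adjusted p = 0.376).

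The other genes of the loop read here were 7. After AOM they lay on both sides by genotype, with a median log2 KO/WT of 0.36. Over 2-fold, 1 was higher and 2 lower, beside 15.1% and 12.9% of all genes. *Ciart*, which encodes a repressor of CLOCK and BMAL1, had relative levels of 0.0583 and 0.0879 with vehicle and 0.0356 and 0.260 after AOM, a KO/WT of 1.51 and 7.31. Its window before the start (chr3:95882229-95882478, minus strand) held the E-box at 116, 58 and 44 bases. The window is shown because the levels of *Ciart* followed the order seen for *Nr1d1*, a choice that says nothing of the E-box. *Bhlhe41*, with an E-box at 153 bases, was lower in KO/WT after AOM, and *Tef*, with E-boxes at 127 and 138 bases, was higher.
Ciart: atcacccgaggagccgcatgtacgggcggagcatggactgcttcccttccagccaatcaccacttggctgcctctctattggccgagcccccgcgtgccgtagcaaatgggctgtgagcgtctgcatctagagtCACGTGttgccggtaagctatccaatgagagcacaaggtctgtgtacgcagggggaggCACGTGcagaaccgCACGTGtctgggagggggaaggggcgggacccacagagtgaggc

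*Arntl2*, the paralog of *Arntl*, went the other way from *Ciart*, with 0.212 and 0.224 with vehicle and 1.77 and 0.414 after AOM, or 4.29-fold lower in KO/WT after AOM. With normexp and quantile normalization *Ciart*, which is dim, fell to 1.21 (log2) in KO/WT after AOM. *Bhlhe41*, which encodes the E-box repressor DEC2, was well above background on the *Pla2g3*+/+ array after AOM, at 0.124, and not on the other 3, so it was at least 8.45-fold lower in KO/WT after AOM and at least 7.45-fold higher in AOM over vehicle in *Pla2g3*+/+. These bounds rest on 1 probe, since the second *Bhlhe41* probe was not well above background on any array, and with normexp and quantile normalization they fell to -1.15 and 1.20 (log2). *Bhlhe40*, which encodes the related DEC1, had 1.5, 1.35, 3.00 and 3.87, and AOM over vehicle was 2.0-fold in *Pla2g3*+/+ and 2.86-fold in *Pla2g3*-/-. *Npas2*, a paralog of *Clock*, had 0.0562, 0.0553, 0.0577 and 0.0899, and *Rora* 0.144, 0.149, 0.226 and 0.290, with no comparison past 2-fold, and a second *Rora* probe was above background on the *Pla2g3*+/+ vehicle array alone. *Rorb* was near background, at 0.0420, 0.0234, 0.0468 and 0.0464, and was not well above it on the *Pla2g3*-/- array with vehicle.

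*Tef* and *Hlf*, which encode D-box activators of the same family as DBP, and *Nfil3*, which encodes a repressor that binds the same element, parted after AOM. *Tef* had relative levels of 9.46 and 9.97 with vehicle and 5.98 and 19.4 after AOM, and *Hlf* 0.303 and 0.329 with vehicle and 0.0652 and 0.679 after AOM. *Nfil3* had 1.06 and 0.731 with vehicle and 0.947 and 0.214 after AOM. KO/WT after AOM was thus 3.24-fold for *Tef* and 10.4-fold for *Hlf*, on the side of *Dbp*, whereas *Nfil3* was 4.42-fold lower. None of the 3 passed 2-fold by genotype with vehicle, and *Hlf* was 4.65-fold lower in AOM over vehicle in *Pla2g3*+/+. With normexp and quantile normalization *Hlf* was at 2.12 and -1.24 (log2) in these comparisons.

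Genes downstream of the clock or acting on its proteins lay on both sides of 0 in KO/WT after AOM. Of 7 output genes, 1 was higher and 2 lower over 2-fold in this comparison, beside 15.1% and 12.9% of all genes. Their median log2 was 0.46. *Usp2*, which encodes a deubiquitinase whose mRNA cycles in many tissues, was 12.8-fold higher, with relative levels of 0.664 and 0.937 with vehicle and 0.116 and 1.49 after AOM, the order of *Nr1d1*. *Noct*, the gene of the rhythmic phosphatase nocturnin, was 2.31-fold lower at its brighter probe, but its dimmer probe lay at 1.29 on the log2 scale, the opposite direction. *Tspan4* was 2.05-fold lower, and the other 4 output genes passed 2-fold in no comparison. In AOM over vehicle in *Pla2g3*+/+, *Tspan4* was 3.51-fold higher and *Usp2* 5.71-fold lower, whereas the *Noct* probes again parted, at 1.65 and -0.82 (log2). With normexp and quantile normalization *Usp2* was at 2.87 (log2) in KO/WT after AOM and at -1.82 in AOM over vehicle in *Pla2g3*+/+. Of 8 genes that modify clock proteins, 1 was over 2-fold higher in KO/WT after AOM and 2 lower, beside 15.1% and 12.9% of all genes. The higher gene was *Btrc* at 2.19-fold, which encodes a ubiquitin ligase subunit for PER proteins. Its second probe was at 0.56 (log2), and the call was lost without scaling (0.97) and with normexp and quantile normalization (0.70). The kinase gene *Csnk1e* was 2.51-fold lower and *Fbxl21* at least 3.57-fold lower, and the median log2 was -0.08. *Fbxl21* fell to -0.57 with normexp and quantile normalization, and its second probe was well above background on the *Pla2g3*-/- array with vehicle alone. *Gsk3b* was over 2-fold higher in AOM over vehicle in both genotypes, at 2.30-fold and 2.02-fold, and *Timeless* and *Csnk1e* in *Pla2g3*+/+, at 2.03-fold and 5.42-fold, of which *Timeless* lost the call with normexp and quantile normalization (0.83). The other 3 genes did not pass 2-fold at their brightest probe, and a dimmer probe of *Csnk1d* was at 1.03 (log2) in AOM over vehicle in *Pla2g3*+/+.

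Glucocorticoids, which are secreted with a daily rhythm and in stress, are known to induce *Per1* and *Per2*, so 6 genes that respond to them were read beside the clock. In KO/WT after AOM, 5 of 6 were over 2-fold higher, beside 15.1% of all genes, with a median log2 of 1.87, and with vehicle 0 of 6 passed 2-fold. Without scaling the count was 4, since *Errfi1* was then at 0.95. *Fkbp5* was 6.18-fold higher, *Tsc22d3* 3.78-fold, *Sgk1* 3.52-fold, *Errfi1* 2.16-fold and *Zbtb16* 24.3-fold (8.21-fold with normexp and quantile normalization), whereas the remaining gene was at -0.69 on the log2 scale. *Tsc22d3* (4.33 and 3.70 with vehicle, 2.53 and 9.58 after AOM), which encodes the leucine zipper protein GILZ, and *Sgk1* (2.98, 3.21, 3.08 and 10.8), which encodes a kinase, were highest on the same array as the *Per* genes. *Fkbp5*, which encodes a chaperone of the glucocorticoid receptor, had the order of *Nr1d1* (3.60, 4.0, 0.704 and 4.35). The brightest *Pla2g3* probe had this order too, so it is not particular to clock genes. *Fkbp5*, *Tsc22d3*, *Zbtb16* and *Errfi1* were each lowest on the *Pla2g3*+/+ array after AOM and highest on the *Pla2g3*-/- array after AOM. For *Errfi1* the lowest array, at 5.94, was close to the *Pla2g3*-/- array with vehicle, at 6.10. In AOM over vehicle, 2 of 6 were over 2-fold lower in *Pla2g3*+/+, beside 22.4% of all genes, and 0 higher. In *Pla2g3*-/-, 4 of 6 were over 2-fold higher, beside 9.65%, and 0 lower. Of 8 immediate early genes, 1 was over 2-fold higher in KO/WT after AOM, *Fos* at 2.95-fold, beside 15.1% of all genes. Over 2-fold lower were 2, *Jun* at 2.31-fold and *Egr1* at 2.08-fold, beside 12.9%, and the median log2 of the 8 was 0.06. With scaling by the median *Egr1* lost its call, and 2 were higher and 1 lower, beside 16.4% and 11.9%. *Fosb* was over 2-fold higher in AOM over vehicle in both genotypes, at 4.94-fold and 4.81-fold, *Fos* in *Pla2g3*-/- at 4.0-fold, *Nr4a1* and *Jun* in *Pla2g3*+/+ at 2.30-fold and 2.29-fold, and *Ier2* was 2.47-fold lower there. *Fos* was highest on the same array as the *Per* genes. The part of glucocorticoids or of handling in the clock values was not tested.

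**Figure D4:**
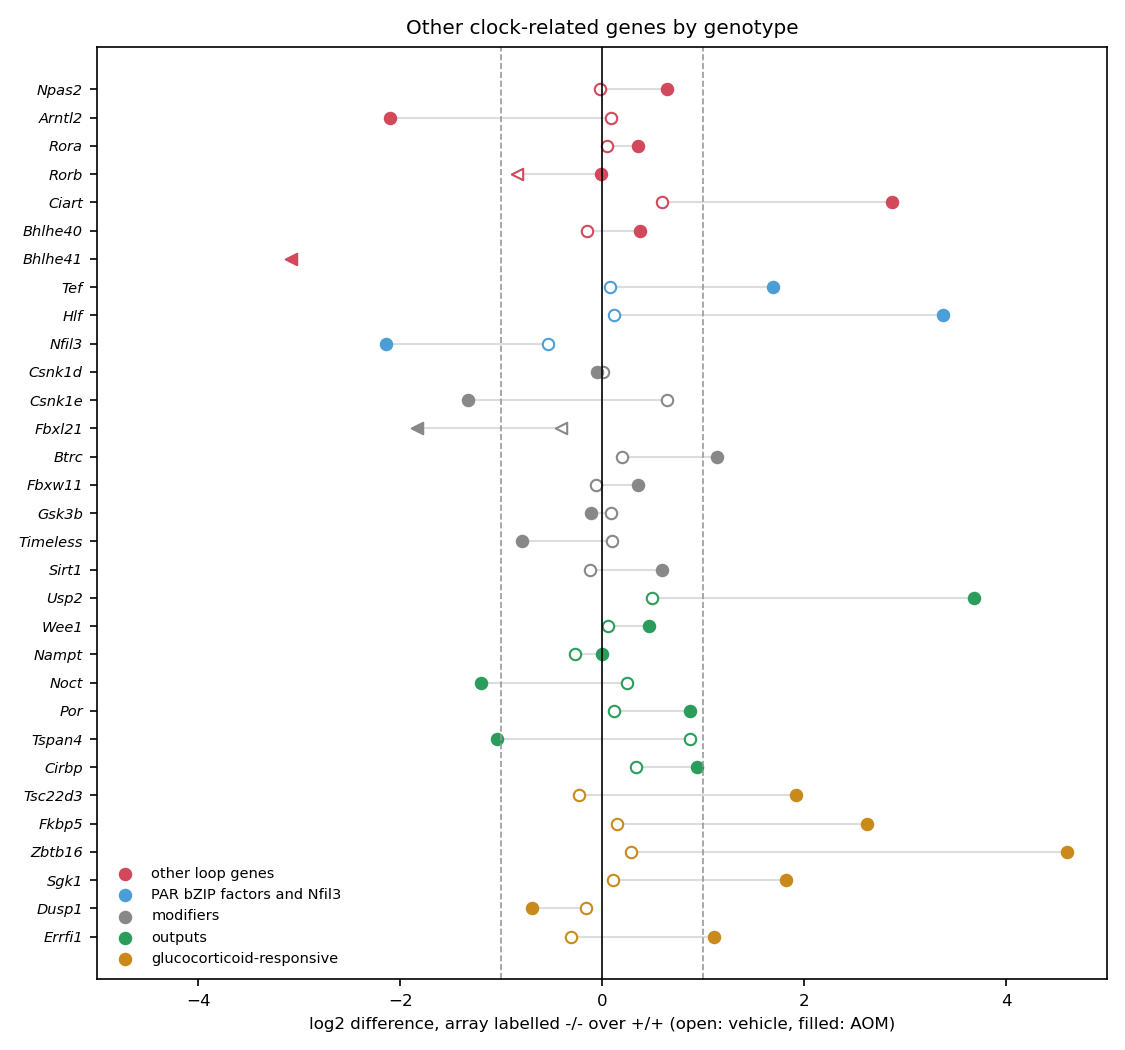
Log2 KO/WT of 31 other genes in 5 groups, with vehicle (open) and after AOM (filled), 1 array per group; dashed lines mark 2-fold, triangles a bound where 1 of the arrays was not well above background, and *Bhlhe41* has no vehicle value. *Usp2*, *Hlf*, *Ciart* and 5 of the 6 glucocorticoid-responsive genes lie to the right of the line at 1 after AOM, and *Arntl2*, *Bhlhe41* and *Nfil3* to the left of the line at -1.

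The levels of cell type markers also differed between the arrays. The summed relative level of 8 smooth muscle markers was 497 and 523 with vehicle, and 29.1 in *Pla2g3*+/+ and 475 in *Pla2g3*-/- after AOM. All 8 were over 2-fold higher in KO/WT after AOM, beside 15.1% of all genes. In the same order of arrays, 6 colonocyte markers (380, 429, 43.6 and 260) and 6 goblet cell markers (1426, 1393, 120.2 and 568) were low on the third, whereas 6 Wnt target genes of colon tumors were high there (5.12, 4.84, 52.5 and 4.24). The *Pla2g3*-/- array after AOM was low in B and plasma cell markers (69.2, 66.7, 38.0 and 4.95 over 5 genes) and in T cell markers (4.27, 4.02, 2.68 and 0.970 over 5 genes). A sum follows its brightest probes, and 1 of the B and plasma cell genes held 66.5 of the 69.2. All 5 B and plasma cell genes were over 2-fold lower in KO/WT after AOM, beside 12.9% of all genes. Of the 5 T cell genes, 3 were over 2-fold lower there, and 1 lay above 0, at 0.23 (log2). The *Pla2g3*-/- array with vehicle held 7 pancreatic acinar markers at a sum of 7.93, against 0.332 on the *Pla2g3*+/+ array with vehicle and 0.162 and 0.140 after AOM, and adipocyte markers of 18.1 against 10.5 in *Pla2g3*+/+. *Dbp*, *Nr1d1*, *Nr1d2* and *Arntl* were lowest on the array that was low in muscle, colonocyte and goblet cell markers, whereas *Per1*, *Per2*, *Per3* and *Cry2* lay there within -0.02 and 0.32 (log2) of the *Pla2g3*+/+ array with vehicle. In bulk RNA fewer cells of a type and less RNA per cell cannot be told apart, and the part of cell content in the clock values was not tested.

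**Figure D5:**
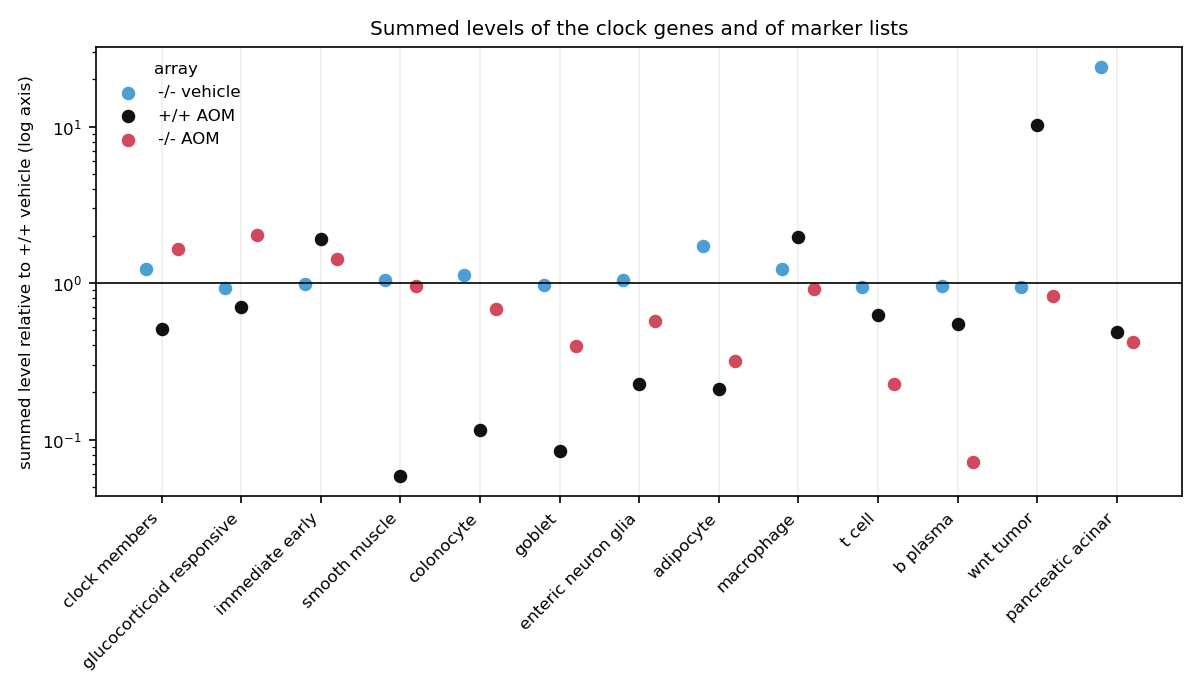
Summed relative level of the 10 clock genes, the 6 glucocorticoid-responsive genes, the 8 immediate early genes and 10 lists of cell type or tumor markers on 3 arrays, divided by the same sum on the array of *Pla2g3*+/+ mice given vehicle (log axis, no unit). The smooth muscle, colonocyte and goblet cell lists are lowest on the *Pla2g3*+/+ array after AOM, where the Wnt target list is highest. Each sum follows its brightest probes, and *Dbp* holds 9.05 of the 17.0 of the clock list on the *Pla2g3*+/+ vehicle array.

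The genes whose pattern over the 4 arrays was most like that of *Arntl* or *Dbp* were sought among 14778 genes above background on every array, by the root mean square distance of the centered log2 values. For *Arntl* these were *Nrip3*, *Rwdd2a*, *Tmprss2*, *Micalcl* and *Stom*, at distances from 0.0559 to 0.0913. For *Dbp* they were *Lgi4*, *Ahrr*, *Gucy1a1*, *Folr2* and *Tm6sf2*, at 0.118 to 0.152. With 4 arrays, 1 per group, many genes can share an order.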

How the data were processed

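Pooled colon RNA of 4 groups (27.7 ng per pool labelled with Cy3) was hybridized to 4 arrays on 1 slide, and groups were taken from the sample labels. The authors deposited spot intensity from Agilent Feature Extraction 11.5.1.1, which per the file headers was background-subtracted and detrended without scaling between arrays, and its calls of signal well above background were used unchanged. A further table of the authors holds this intensity as a ratio to a divisor close to the array's 75th percentile, and served as an alternative.

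Each array had 43020 spots other than controls, of which 64.8% to 69.4% were well above background and 0 saturated. Outlier spots were left out, repeated spots averaged as log2, and the array's 75th percentile subtracted (645.6 to 1309 as intensity). Probes were named by accession (27651), symbol (3395) or synonym (321) through RefSeq, GRCm38.p6. Coordinates of probes are those of the files, mm9. The probe with the highest mean over the arrays stood for its gene. A signal not above background was set to the lowest that was on its array (10.7 to 17.1) or its own if higher, written as "at least". The number of arrays limits the precision.

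The 10 members, the lists and the tests were chosen with earlier results of these data known. Named were every member, *Pla2g3*, the other loop and D-box genes, genes of the remaining clock lists past 2-fold in any comparison, and the 5 nearest patterns to *Arntl* and *Dbp*. Tools were Python 3.11.15, pandas 2.3.3, numpy 2.4.6, matplotlib 3.10.9 and limma 3.58.1 in R 4.3.3, tested on simulated data with Benjamini-Hochberg adjustment at 0.05. Genes in the limma fit were well above background on at least 2 arrays. Some genes of these lists are not reported here.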

Additional observations from a re-analysis of the deposited data

Results flagged for a closer look

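Among the members, *Arntl*, *Cry1*, *Per2* and *Nr1d1* had differences in opposite directions in the 2 genotypes or under the 2 treatments, each larger than the error margin of single spots. None of these differences between differences could be tested, since each group was 1 array. *Arntl* was lower on the *Pla2g3*-/- array with vehicle and higher after AOM, and lower after AOM in *Pla2g3*+/+ and higher in *Pla2g3*-/-, a difference of 1.73 on the log2 scale. *Cry1* showed the same signs in both comparisons, with a difference of 1.35, at signals close to background, which was 0.51 with normexp and quantile normalization. *Per2* was lower on the *Pla2g3*-/- array with vehicle and higher after AOM, a difference of 2.82, which was 1.77 with normexp and quantile normalization. *Nr1d1* was lower after AOM in *Pla2g3*+/+ and higher in *Pla2g3*-/-, a difference of 1.98.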

How the results depend on the processing

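The number of members past the threshold, taken per comparison and direction, moved by over 1.5 times in 10 cases. All of these arose without scaling, with normexp and quantile normalization, at 1.5-fold or at 4-fold. Without scaling, which shifts the median of all genes in AOM over vehicle to 0.87 (log2) in *Pla2g3*+/+ and 0.76 in *Pla2g3*-/-, 4 members were over 2-fold higher and 1 lower in *Pla2g3*+/+, and 8 higher in *Pla2g3*-/-, beside 45.1%, 7.17% and 38.1% of all genes. With normexp and quantile normalization 1 was lower in *Pla2g3*+/+, beside 9.68%. At 1.5-fold, 2 were lower in KO/WT with vehicle, 4 lower in AOM over vehicle in *Pla2g3*+/+ and 8 higher in *Pla2g3*-/-, beside 3.48%, 35.3% and 20.7%. At 4-fold, 4 were higher in KO/WT after AOM, 1 lower in AOM over vehicle in *Pla2g3*+/+ and 2 higher in *Pla2g3*-/-, beside 5.65%, 7.24% and 1.39%.

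The remaining alternatives were scaling by the median, quantile normalization, the mean over probes, the dimmest probe, no bound for dim signals, only genes above background on both arrays and the deposited table. The last 3 could not move the members, whose probes were well above background on all arrays and whose deposited values have nearly the same divisor. Of the 240 member differences under the other 6, 204 kept a 2-fold call or, without one, moved by less than the spot error, 20 moved by more, 11 newly passed and 5 lost 2-fold. A kept call can still differ in size, as for *Per2* and *Per3*. The 2-fold call of *Arntl* in KO/WT after AOM was lost without scaling (0.94) and with normexp (0.93), that of *Nr1d1* in AOM over vehicle in *Pla2g3*+/+ with the same settings (-0.31 and -0.97), and that of *Per1* in AOM over vehicle in *Pla2g3*-/- with the mean over probes (0.69), which takes in its dim probe. The medians of the 6 other gene lists moved in 8 of 48 cases under quantile normalization with or without normexp. In alternatives chosen after seeing the data, they moved without scaling by 1.02 (log2) in AOM over vehicle in *Pla2g3*+/+ and 0.85 in *Pla2g3*-/-, and with scaling by the median by less than the spot error in each of 24 cases. The limma fit called 0 genes in each of its 4 settings. No paired analysis was possible because each group is 1 array with no replicate number. No replicate could be left out. Members near background, *Cry1*, *Per3* and the second *Per1* probe, are limited by their signal.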

Other observations

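Among the clock genes that are not members, windows of 250 bases before the start held an E-box in *Tef* (127 and 138 bases before its 2 starts) and *Bhlhe41* (153), the variant in *Rorb* (234) and a cAMP response element in *Hlf* (9). They are matches of letters, as above.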
